A study of Mus musculus with 4 samples.

Results

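The cholesterol synthesis and SREBP2 pathway is described here through 26 mouse genes with a known role in it. The rule that names them uses no measured value, but they were named with earlier results of these data known. They encode 19 enzymes of sterol synthesis, the transcription factor SREBP2 with its regulators (4 in all), and 3 proteins that move sterol inside the cell. All 26 were found by symbol among the 55573 genes of the deposited table, and all 26 passed the filter on low counts. The cells came from mouse medulloblastoma, a cerebellar tumour, of the Sonic Hedgehog subtype, and are named SmoWT in the labels, which say they were grown as neurospheres. All libraries share the genotype Ptch1+/-, Trp53-/- and the strain C57BL/6. One group was given DMSO, the solvent, and the other 0.1 µM GDC0449 (vismodegib, an inhibitor of Smoothened, the signal transducer of the Hedgehog pathway), each for 24 h. Each group has 2 libraries. The labels do not say whether they came from separate cultures, so each p-value is set against the spread between these libraries alone, and that spread may be technical.

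Cholesterol is built from acetyl-CoA. The mevalonate enzymes make isoprenoid units. These units are joined into farnesyl diphosphate, the branch point to squalene. Squalene is closed into lanosterol, and a last series of enzymes trims lanosterol to cholesterol. SREBP2 is held in the endoplasmic reticulum by SCAP and the INSIG proteins while sterol is plentiful. When sterol falls, SCAP carries SREBP2 to the Golgi, where it is cut, and the freed part enters the nucleus and turns on most of the genes of the route. In cerebellar granule cell precursors, the cells from which this tumour type arises, sterols are also needed for Smoothened to be active.

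After GDC0449, 17 of the 26 genes were higher, 0 were lower and 9 did not pass. A gene was called when edgeR's adjusted p was below 0.05 and the fold change was over 1.5. The same rule called 12.5% of the 15472 tested genes in either direction, 8.68% as higher and 3.85% as lower. The median log2 fold change over the 26 genes was 0.72, against 0.01 over all tested genes, with a range from -0.17 to 1.42. On the adjusted p alone, 21 members were higher and 0 lower, beside 18.1% higher and 18.1% lower over all tested genes. Of the 9 genes not called, 4 had an adjusted p below the threshold with a change under 1.5-fold (Sqle, Msmo1, Srebf2 and Npc2), and 5 missed on the p-value (Ggps1, Ebp, Insig2, Scap and Npc1). No member was lower at an unadjusted p below 0.05 either (0 of 26), and DESeq2 and limma-voom also called 0 lower. By summed level, the 26 genes together reached 2614 and 2436 CPM (reads of a gene scaled to a common library total) with DMSO, and 3989 and 3890 CPM with GDC0449. In bulk RNA, fewer cells of a type and less RNA per cell cannot be told apart.

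**Figure D1:**
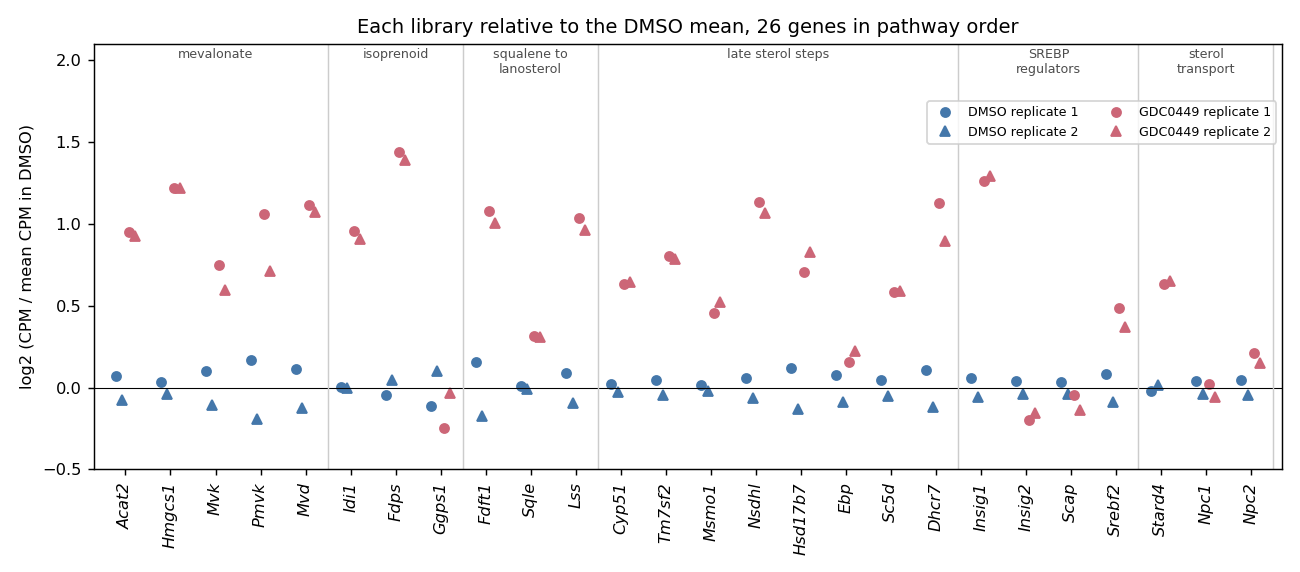
Level of each of the 26 genes in each library, as log2 of CPM over the DMSO mean, in pathway order (circles, replicate 1; triangles, replicate 2; colours, DMSO and GDC0449). The GDC0449 points lie above the DMSO points along the enzymes, except at Ggps1, and fall together with or below them at Insig2, Scap and Npc1.

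The mevalonate steps rose as a block, with 5 of 5 enzymes called higher and a median log2 fold change of 0.94. Hmgcs1 (ENSMUSG00000093930; GRCm38 chr13:119690379-119708260), the cytosolic HMG-CoA synthase, stood at 134 and 127 CPM in the DMSO pair and at 304 CPM in both libraries with GDC0449. Its groups were far apart, and the fold change was 2.33 (log2 1.22, SE 0.06, adjusted p 4.56e-23). Acat2, the cytosolic thiolase that joins acetyl-CoA units at the start of the route, had 73.0 and 66.0 CPM in DMSO and 134 and 132 CPM in GDC0449. This was a 1.91-fold rise (adjusted p 1.38e-16). Mvd, the decarboxylase that ends the mevalonate steps, had 51.5 and 43.8 CPM in DMSO and 103 and 100.4 CPM in GDC0449, a 2.13-fold rise (adjusted p 1.01e-17).

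The 2 kinases between them were lower in level and less firmly called. Mvk, mevalonate kinase, had 25.9 and 22.4 CPM in DMSO and 40.7 and 36.5 CPM in GDC0449, a 1.59-fold rise (adjusted p 5.45e-08). Pmvk, phosphomevalonate kinase, had 15.1 and 11.7 CPM in DMSO and 28.0 and 21.9 CPM in GDC0449, a 1.85-fold rise (adjusted p 2.16e-08). In both genes the groups did not overlap. The call for Mvk was lost without DMSO replicate 2 (adjusted p 0.0579) and on the FPKM values (0.0615, the highest of its alternatives; the lowest was 8.12e-17). The call for Pmvk was lost without DMSO replicate 1 (adjusted p 0.0530), without DMSO replicate 2 (0.1004, its highest; its lowest was 7.17e-18) and with no filter on low counts (0.0731).

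Mvk lies head to head with Mmab, a gene of cobalamin metabolism. Both are on chromosome 5, on opposite strands, and their annotated 5′ ends are 208 bases apart in GRCm38. Mmab, named here after its values were seen, had 34.8 and 32.0 CPM in DMSO and 52.4 and 48.5 CPM in GDC0449. It was called higher at 1.51-fold (adjusted p 8.19e-08), a fold that lies on the threshold, and the call was lost in 6 alternatives.

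Of the 3 enzymes that handle isoprenoid units, the pair that leads up to farnesyl diphosphate, the branch point, rose. The enzyme that leads on from there to a non-sterol product did not pass. Idi1, the isomerase that readies isoprenoid units for joining, had 33.2 and 33.1 CPM in DMSO and 64.3 and 62.2 CPM in GDC0449, a 1.91-fold rise (adjusted p 3.21e-14). Fdps, the synthase of farnesyl diphosphate, had the highest fold change of the 26 genes from counts, 2.67 (log2 1.42, SE 0.17, adjusted p 1.99e-09), on low counts: 3.61 and 3.85 CPM in DMSO and 10.1 and 9.81 CPM in GDC0449. That rank holds on counts only: on FPKM its fold was 1.75, below 2.48 for Insig1 and 2.34 for Hmgcs1 among others. Ggps1 extends farnesyl diphosphate to geranylgeranyl diphosphate, which is used to anchor small GTPases. It had 27.9 and 32.4 CPM in DMSO and 25.4 and 29.5 CPM in GDC0449, so that the groups overlapped (log2 -0.13, SE 0.10, adjusted p 0.320).

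At the steps from squalene to lanosterol, Fdft1 and Lss rose about equally and Sqle stayed under the fold threshold. Fdft1, squalene synthase, had 127 and 101 CPM in DMSO and 241 and 229 CPM in GDC0449, a 2.06-fold rise (adjusted p 5.11e-18). Lss, which closes the ring system to give lanosterol, had 119 and 105 CPM in DMSO and 229 and 218 CPM in GDC0449, a 2.0-fold rise (adjusted p 1.59e-18). Sqle, squalene epoxidase, is an oxygen-using and rate-limiting step between these enzymes. It had 325 and 321 CPM in DMSO and 403 and 401 CPM in GDC0449; the groups did not overlap and replicates were close. The fold change was 1.24 (log2 0.31, SE 0.06, adjusted p 2.01e-05), and its 95% interval on the log2 scale, 0.20 to 0.43, lay below that of Fdft1, 0.90 to 1.19, and that of Lss, 0.87 to 1.13.

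From lanosterol to cholesterol, 6 of 8 enzymes rose, with a median log2 fold change of 0.70. Nsdhl, a sterol dehydrogenase of the demethylation steps encoded on the X chromosome, had 48.5 and 44.5 CPM in DMSO and 102 and 97.4 CPM in GDC0449. Its 2.14-fold rise (adjusted p 3.26e-18) was the highest of the 8. Dhcr7, the reductase that yields cholesterol from its immediate precursor, had 68.2 and 58.4 CPM in DMSO and 138 and 118 CPM in GDC0449, a 2.02-fold rise from counts (adjusted p 2.04e-16). Cyp51, the lanosterol demethylase, had 267 and 258 CPM in DMSO and 407 and 410 CPM in GDC0449, a 1.56-fold rise (adjusted p 3.82e-13). In each of these genes both GDC0449 libraries lay above both DMSO libraries.

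Tm7sf2 and Hsd17b7 were lower in level and rose to a like degree. Tm7sf2, a sterol reductase, rose 1.73-fold from 16.7 ± 0.741 to 29.0 ± 0.293 CPM (SD, n = 2; adjusted p 6.46e-09). Hsd17b7, the ketoreductase of the demethylation steps, rose 1.70-fold from 31.5 ± 3.85 to 53.7 ± 3.24 CPM (adjusted p 2.13e-10). The membrane protein Lbr carries out the same reduction as Tm7sf2, and had 119.8 ± 1.61 CPM in DMSO and 117 ± 2.85 CPM in GDC0449 (log2 -0.03, SE 0.07, adjusted p 0.727; named after its values were seen). The ratio of Tm7sf2 to Lbr, taken per length from FPKM, was 0.235 and 0.255 in DMSO and 0.431 and 0.430 in GDC0449.

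The remaining late enzymes lay at or under the fold threshold. Sc5d, a sterol desaturase, had 94.7 and 88.6 CPM in DMSO and 137 and 138 CPM in GDC0449. Its fold change was 1.50 (log2 0.59, SE 0.07, adjusted p 2.63e-10), just inside the threshold, and its log2 fold change fell under it in 6 alternatives, with values down to 0.53 when DMSO replicate 2 was left out. Msmo1, the sterol methyl oxidase, lay just outside it, with a mean of 122 ± 2.26 CPM in DMSO and 171 ± 5.58 CPM in GDC0449 (1.41-fold, adjusted p 1.18e-08). Ebp, a sterol isomerase, had 24.2 and 21.6 CPM in DMSO and 25.6 and 26.8 CPM in GDC0449. The groups did not overlap, yet the difference did not pass (log2 0.19, 95% interval -0.01 to 0.39, adjusted p 0.136).

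**Figure D2:**
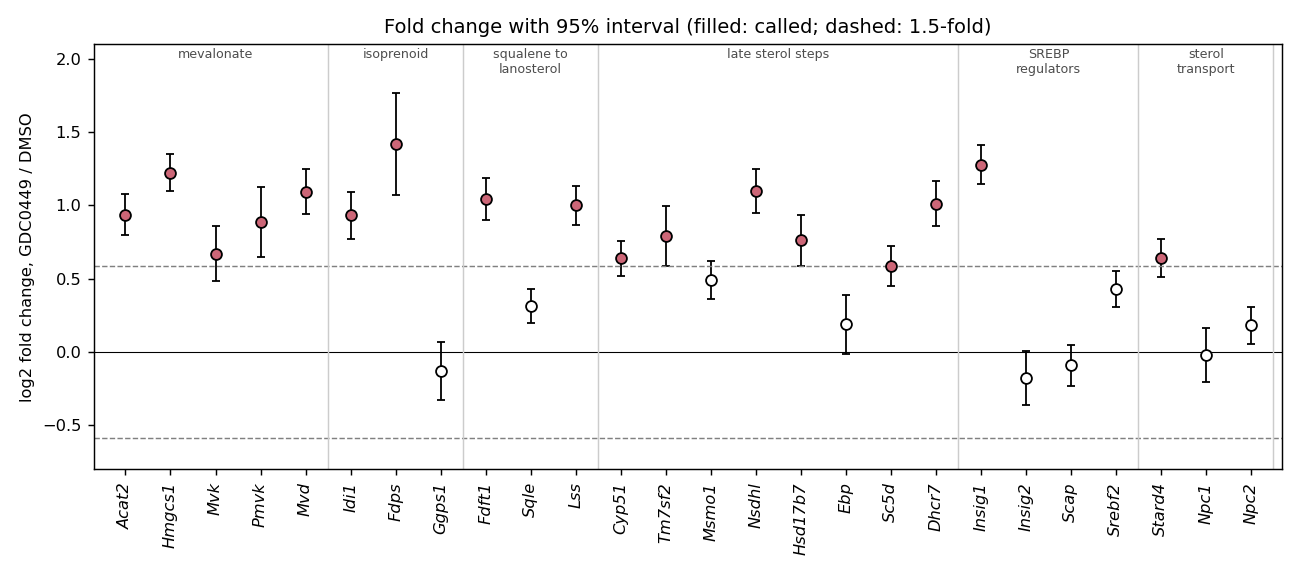
Log2 fold change of GDC0449 over DMSO for each of the 26 genes in pathway order, with its 95% interval (filled, called higher; open, not called; dashed lines, 1.5-fold). Called genes run from 0.59 for Sc5d to 1.42 for Fdps, and the intervals of Ggps1, Ebp, Insig2, Scap and Npc1 include 0.

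Among the 4 genes for SREBP2 and its regulators, Insig1 was the one called. Insig1 (ENSMUSG00000045294; GRCm38 chr5:28071363-28078662) encodes a protein that retains SCAP in the endoplasmic reticulum and is itself a known target of SREBP2. It had 96.8 and 89.4 CPM in DMSO and 223 and 228 CPM in GDC0449, a 2.42-fold rise (log2 1.28, SE 0.07, adjusted p 4.99e-23). Its relative Insig2 has the same retaining role, and in mouse liver its main transcript is not raised by SREBP. Insig2 had 32.2 and 30.5 CPM in DMSO and 27.4 and 28.2 CPM in GDC0449 (log2 -0.17, 95% interval -0.36 to 0.01, adjusted p 0.135). The groups of Insig2 did not overlap, and both GDC0449 libraries were the lower ones. Per length, from FPKM, the ratio of Insig1 to Insig2 was 3.25 and 3.22 with DMSO, and 8.58 and 9.36 with GDC0449.

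Srebf2, the gene for SREBP2 itself, had 406 and 362 CPM in DMSO and 539 and 496 CPM in GDC0449. The groups did not overlap, and the change was 1.35-fold (log2 0.43, SE 0.06, adjusted p 8.56e-08), under the fold threshold. With no filter on low counts, the adjusted p of Srebf2 from edgeR was 0.0645, and the adjusted p was higher still in another alternative. Over all alternatives its log2 fold change ran from 0.34 to 0.51. Scap, the escort of SREBP2, had 97.9 and 93.0 CPM in DMSO and 92.8 and 86.8 CPM in GDC0449 (log2 -0.09, SE 0.07, adjusted p 0.338). On the FPKM values Scap was lower, with 17.5 and 18.7 in DMSO and 12.1 and 14.1 in GDC0449 (log2(FPKM + 1) difference -0.44, limma adjusted p 0.0489, the lowest of its alternatives; the highest was 0.796). RNA levels do not report cleavage of SREBP2, which was not measured.

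Of the 3 transport genes, Stard4 rose and the Niemann-Pick pair was not called. Stard4, a soluble carrier that moves cholesterol between membranes, had 121 and 124 CPM in DMSO and 190.3 and 193 CPM in GDC0449, a 1.56-fold rise (adjusted p 3.41e-12). Npc1 and Npc2 together export cholesterol from lysosomes. Npc1 had 31.0 and 29.4 CPM in DMSO and 30.6 and 29.0 CPM in GDC0449, with overlapping groups (log2 -0.02, SE 0.09, adjusted p 0.899). Npc2 had 217 and 204 CPM in DMSO and 244 and 234 CPM in GDC0449 (1.13-fold, adjusted p 0.0171). On the FPKM values, the limma adjusted p of Npc2 was 0.102, and the adjusted p was higher still in another alternative. Over all alternatives its log2 fold change ran from 0.13 to 0.23.

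Levels can be compared between genes only per length, for which the deposited FPKM values were used. In DMSO the highest FPKM means were those of Fdps at 80.5 ± 0.736, Sqle at 77.5 ± 0.290, Srebf2 at 55.8 ± 3.87, Cyp51 at 45.2 ± 0.753, Hmgcs1 at 44.4 ± 0.00865 and Npc2 at 44.1 ± 1.31 (SD, n = 2). Hmgcs1 and Npc2 did not differ beyond their spread. In GDC0449 the order changed: Fdps was at 141 ± 0.599, Hmgcs1 at 104 ± 0.185, Sqle at 96.1 ± 0.746, Srebf2 at 73.1 ± 4.08 and Cyp51 at 71.4 ± 1.22, with the last pair within their spread. At the low end, Npc1 had an FPKM of 4.13 ± 1.11 and Hsd17b7 of 4.55 ± 0.434 in DMSO, which also overlapped. These orders depend on the measure. By CPM per kilobase of exon in DMSO, Fdps was the lowest of the 26 at 0.887, and Cyp51 at 59.4, Sqle at 58.3 and Srebf2 at 53.5 were the highest. On both measures Sqle was among the 3 most abundant transcripts apart from Fdps, and it had the lowest fold change of the enzymes from squalene to lanosterol.

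**Figure D3:**
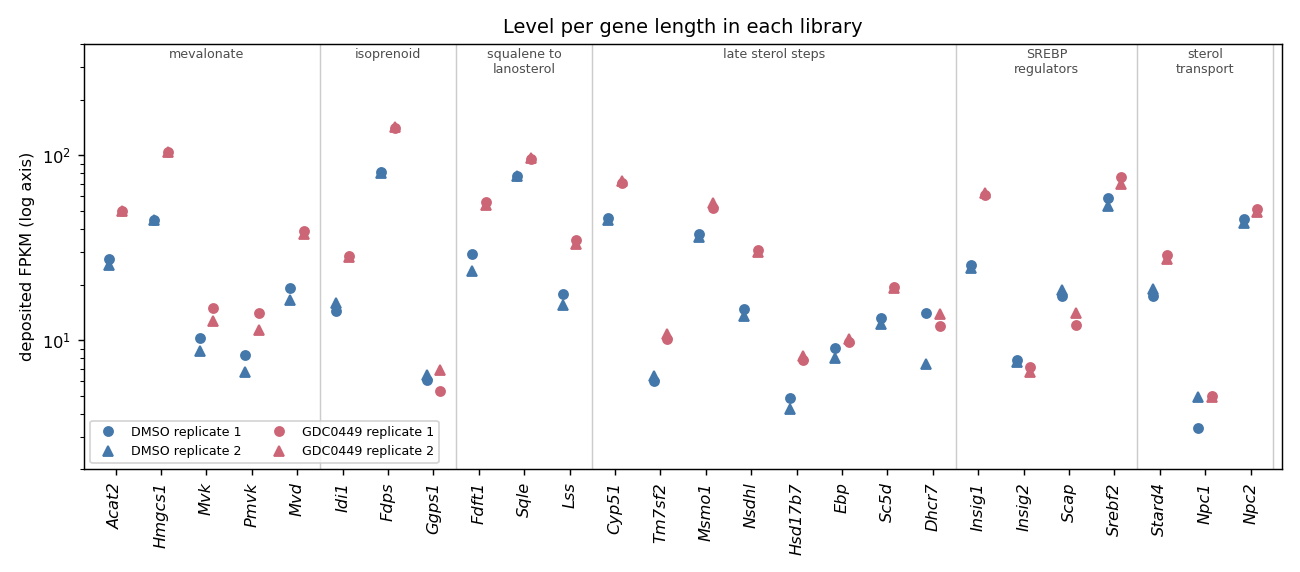
Deposited FPKM of each of the 26 genes in each library on a log axis, in pathway order (circles, replicate 1; triangles, replicate 2; colours, DMSO and GDC0449). Fdps, Sqle and Srebf2 lead in DMSO, Hmgcs1 passes Sqle in GDC0449, and the DMSO points of Dhcr7 lie apart.

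Counts and FPKM differed most in what they show for Fdps and Dhcr7; Scap was also lower on FPKM, as given above, and Npc1 had a log2 difference of -0.02 from counts and 0.23 from FPKM. Fdps (ENSMUSG00000059743; GRCm38 chr3:89093588-89101959) had 81.0 and 80.0 FPKM in DMSO and 141 and 142 FPKM in GDC0449, a 1.75-fold difference against 2.67-fold from counts. It was called on both (limma adjusted p 0.00293 on log2(FPKM + 1)). Its FPKM was 75.3 times its CPM per kilobase of exon. That ratio had a median of 0.866 over all tested genes and was at least that of Fdps in 37 of 15447, and the other 25 members lay between the 5th and 95th percentiles of all genes, 0.409 and 2.68. In GENCODE M21, 26.7% of the exonic bases of Fdps are shared with Gm43738 on the same strand, a gene named after its values were seen. Gm43738 was at 0 counts in all 4 libraries and had 33.7 and 32.1 FPKM in DMSO and 58.2 and 58.5 FPKM in GDC0449. HTSeq leaves out reads that fall in more than 1 gene, but whether this set the low counts of Fdps was not tested.

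Dhcr7 (ENSMUSG00000058454; GRCm38 chr7:143823145-143848410) had 14.0 and 7.48 FPKM in DMSO and 12 and 13.9 FPKM in GDC0449, so that the groups overlapped. Its log2(FPKM + 1) difference was 0.30 (limma adjusted p 0.504, the highest of its alternatives; the lowest was 1.29e-84), where the log2 fold change from counts was 1.01. The lowest FPKM belongs to DMSO replicate 2, but that of DMSO replicate 1 was above both GDC0449 libraries. From counts, the DMSO libraries stood at 68.2 and 58.4 CPM, below the GDC0449 libraries at 138 and 118 CPM. Why the 2 measures differ was not tested. In all other alternatives Dhcr7 was called higher.

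**Figure D4:**
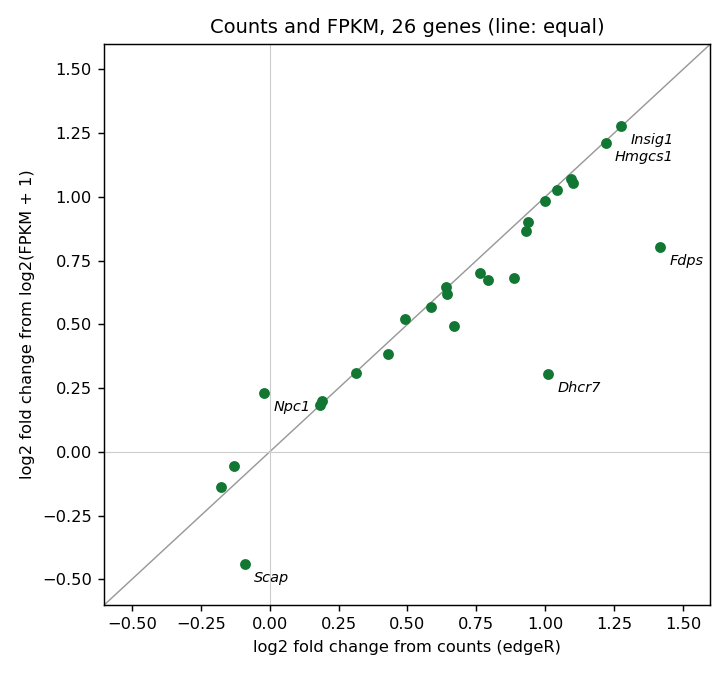
Log2 fold change from counts (x axis, edgeR) against the difference in log2(FPKM + 1) (y axis, limma) for the 26 genes, with the line of equal values. Fdps at 1.42 and 0.80 and Dhcr7 at 1.01 and 0.30 lie below the line, and Scap at -0.09 and -0.44 lies below it at the low end.

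A feature of the 26 genes that the values did not enter is their promoter sequence. RefSeq promoter windows on GRCm38.p6, from 250 bases before to 50 bases after the start, were held for 21 of the 26 genes in 27 windows. Fdps, Fdft1, Sqle, Stard4 and Npc1 had none here. The windows were searched on both strands for TCACNCCAC (a sterol regulatory element, the site of SREBP), for its core CACNCCA, which overlaps it, for CCAAT (the box of NF-Y, a factor that acts beside SREBP) and for GGGCGG (the GC box of Sp1). CCAAT was held by 19 of the 21 genes and by 70.4% of their windows, against 37.4% of all 32851 promoters and 37.8% of those of tested genes. It was held by 13 of the 14 genes called higher with a window and by 6 of the 7 not called, so the box did not separate these groups. Acat2, which rose, and Scap, which was not called, lacked it.

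The GC box was held by 81.5% of the windows, against 35.7% of all promoters and 60.9% of promoters of tested genes. The sterol regulatory element in this spelling was found in 1 of the 21 genes, Hmgcs1, as TCACCCCAC, 137 bases before the start. That is 3.70% of the windows against 1.24% of all promoters, and its core was held by 25.9% against 18.4%. A match is a description of letters and not a bound site, and no match says only that these letters are not in this window.

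Stretches before the start are printed for 9 genes so that called and uncalled members can be read side by side. Each runs 5′ to 3′ on the gene's strand, ends before the annotated gene, and has capitals at the sterol regulatory element and at CCAAT or its complement ATTGG. The first 6 are genes called higher: Hmgcs1 with the element and CCAAT, Insig1, Mvk with 5 boxes in the bases between it and Mmab, Mvd, Nsdhl, and Acat2 with none. The last 3 are Insig2, Ggps1 and Ebp, which were not called and yet hold 3, 3 and 2 boxes.
Hmgcs1 (chr13:119690201-119690350, plus strand): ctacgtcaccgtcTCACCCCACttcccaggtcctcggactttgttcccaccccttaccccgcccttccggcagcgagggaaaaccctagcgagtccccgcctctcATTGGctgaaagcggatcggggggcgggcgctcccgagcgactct
Insig1 (chr5:28071162-28071362, plus strand): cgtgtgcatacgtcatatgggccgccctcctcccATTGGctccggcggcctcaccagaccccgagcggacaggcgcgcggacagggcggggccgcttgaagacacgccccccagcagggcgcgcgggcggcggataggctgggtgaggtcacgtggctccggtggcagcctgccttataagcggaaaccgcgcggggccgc
Mvk (chr5:114444069-114444268, plus strand): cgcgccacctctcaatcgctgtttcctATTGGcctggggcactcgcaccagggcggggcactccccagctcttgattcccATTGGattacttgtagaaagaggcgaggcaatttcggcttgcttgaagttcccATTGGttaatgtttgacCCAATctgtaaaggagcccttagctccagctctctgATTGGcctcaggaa
Mvd (chr8:122443423-122443542, minus strand): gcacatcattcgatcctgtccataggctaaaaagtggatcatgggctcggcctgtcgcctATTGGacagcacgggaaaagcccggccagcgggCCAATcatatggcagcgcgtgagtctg
Nsdhl (chrX:72918401-72918520, plus strand): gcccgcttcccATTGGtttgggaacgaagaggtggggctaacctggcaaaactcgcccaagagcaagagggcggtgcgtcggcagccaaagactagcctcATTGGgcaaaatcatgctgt
Acat2 (chr17:12960748-12960845, minus strand): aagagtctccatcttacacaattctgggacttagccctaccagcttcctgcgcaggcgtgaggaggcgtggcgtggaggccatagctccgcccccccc
Insig2 (chr1:121332590-121332739, minus strand): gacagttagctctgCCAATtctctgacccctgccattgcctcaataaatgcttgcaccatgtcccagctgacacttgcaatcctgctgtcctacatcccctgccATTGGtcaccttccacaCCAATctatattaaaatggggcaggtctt
Ggps1 (chr13:14063489-14063698, minus strand): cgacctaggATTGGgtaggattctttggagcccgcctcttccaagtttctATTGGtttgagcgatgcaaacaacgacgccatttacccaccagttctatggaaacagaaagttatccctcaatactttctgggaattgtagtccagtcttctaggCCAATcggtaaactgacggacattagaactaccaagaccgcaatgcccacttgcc
Ebp (chrX:8193513-8193692, minus strand): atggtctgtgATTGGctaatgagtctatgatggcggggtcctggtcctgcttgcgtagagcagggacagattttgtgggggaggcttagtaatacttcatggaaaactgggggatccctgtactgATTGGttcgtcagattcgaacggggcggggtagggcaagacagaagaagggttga

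Around the 26 genes, 50 further genes in 6 lists were examined, of which 48 were tested. Of these, 9 were called higher and 3 lower, with a median log2 fold change of -0.04. The supply of acetyl-CoA and other sterol-regulated genes had 5 of 7 called higher (median 0.73), beside 8.68% over all tested genes. The branches that lead from isoprenoids to products other than sterol had 0 of 12 called in either direction (median -0.16), beside 12.5% over all tested genes. In that branch 0 genes were higher and 5 lower on the adjusted p alone (all tested genes, 18.1% each way). No test compared the lists with each other or with other genes.

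Of the acetyl-CoA list, 4 genes of acetyl supply and Mmab were called higher. Aacs, which activates acetoacetate for sterol and fatty acid synthesis, rose 2.30-fold from 57.1 ± 3.07 to 132 ± 4.64 CPM (SD, n = 2; adjusted p 1.51e-20). Acss2, which makes acetyl-CoA from acetate in the cytosol, rose 2.11-fold from 14.1 ± 0.554 to 29.9 ± 1.33 CPM (adjusted p 1.65e-12). Slc25a1, the mitochondrial citrate exporter, and Acly, which splits that citrate into acetyl-CoA, form the main supply line. Slc25a1 rose 1.78-fold (36.0 ± 0.618 to 64.1 ± 3.88 CPM, adjusted p 1.40e-12) and Acly 1.66-fold (497 ± 19.4 to 824 ± 36.3 CPM, adjusted p 1.92e-15). The list's other genes were not called: the sterol-regulated Tmem97 had 46.5 ± 0.80 CPM in DMSO and 40.3 ± 0.837 CPM in GDC0449 (log2 -0.21, adjusted p 0.0388), and Rdh11 had a log2 fold change of 0.15 (adjusted p 0.0903).

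Among the electron donors and partners of the late steps, 1 of 6 was called, a share near that of all genes. It was Cyb5a, a cytochrome that passes electrons to sterol desaturases and oxidases. It rose 1.74-fold from 13.0 ± 0.471 to 22.6 ± 1.19 CPM (adjusted p 5.59e-08). In the branch to other products, the genes with the smallest p were Icmt, which methylates prenylated proteins, and Rabggtb, a subunit of the transferase that prenylates Rab proteins. Icmt had 84.0 CPM in DMSO and 62.4 CPM in GDC0449 (log2 -0.43, adjusted p 3.23e-06). Rabggtb had 68.9 and 51.4 CPM (log2 -0.42, adjusted p 8.85e-06). Both were under the fold threshold.

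The proteins that cut SREBP2 or degrade sterol enzymes and INSIG had 0 of 10 called higher and 1 lower (median -0.27), with 1 higher and 6 lower on the adjusted p alone. The share called, 1 of 10, is near the 12.5% of all tested genes. The called gene was Erlin1, a membrane protein of the endoplasmic reticulum known from human cells for sterol-linked degradation and for restraining SREBP. It fell 2.75-fold, from 74.2 ± 2.0 to 26.9 ± 1.99 CPM (adjusted p 1.96e-21).

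The uptake and transport list moved both ways, with 3 of 11 higher and 2 lower (median 0.01). Over all tested genes, 8.68% were called higher and 3.85% lower. Stard5, a sterol carrier of the same protein family as Stard4, fell 6.06-fold, from 65.5 ± 0.438 to 10.8 ± 0.0577 CPM (adjusted p 2.43e-29). Vldlr, a lipoprotein receptor that also receives reelin in the brain, fell 3.24-fold, from 186 ± 3.85 to 57.5 ± 3.74 CPM (adjusted p 2.71e-27). Lrp1, another receptor of the lipoprotein receptor family, rose 1.71-fold, from 29.2 ± 4.89 to 50.1 ± 6.51 CPM (adjusted p 1.51e-09). Its call was lost in 3 alternatives, among them without DMSO replicate 2 (adjusted p 0.0813, its highest; its lowest was 3.87e-27). Gramd1b, a carrier of cholesterol from the plasma membrane, was called at 1.50-fold (50.2 ± 0.434 to 75.5 ± 0.736 CPM, adjusted p 4.66e-09), on the threshold, and lost in 6 alternatives. Gramd1c, the other gene called higher, lost the call in 7 and did not pass the 5 CPM filter in another.

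Of 4 paralogs of the members, 2 were tested and 0 were called, beside 12.5% over all tested genes. Acat1, the mitochondrial thiolase, had 87.3 CPM in DMSO and 114 CPM in GDC0449 (log2 0.38, adjusted p 7.41e-06, under the fold threshold). Acat3, a close copy of Acat2 in the mouse, had 0.723 and 1.19 CPM (adjusted p 0.181). On FPKM, Acat3 passed both thresholds, with 2.95 ± 0.0921 in DMSO and 5.43 ± 0.112 in GDC0449 (log2(FPKM + 1) difference 0.70, limma adjusted p 0.0160). Reads that align to several places were left out of the counts, so the level of such copies is uncertain.

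**Figure D5:**
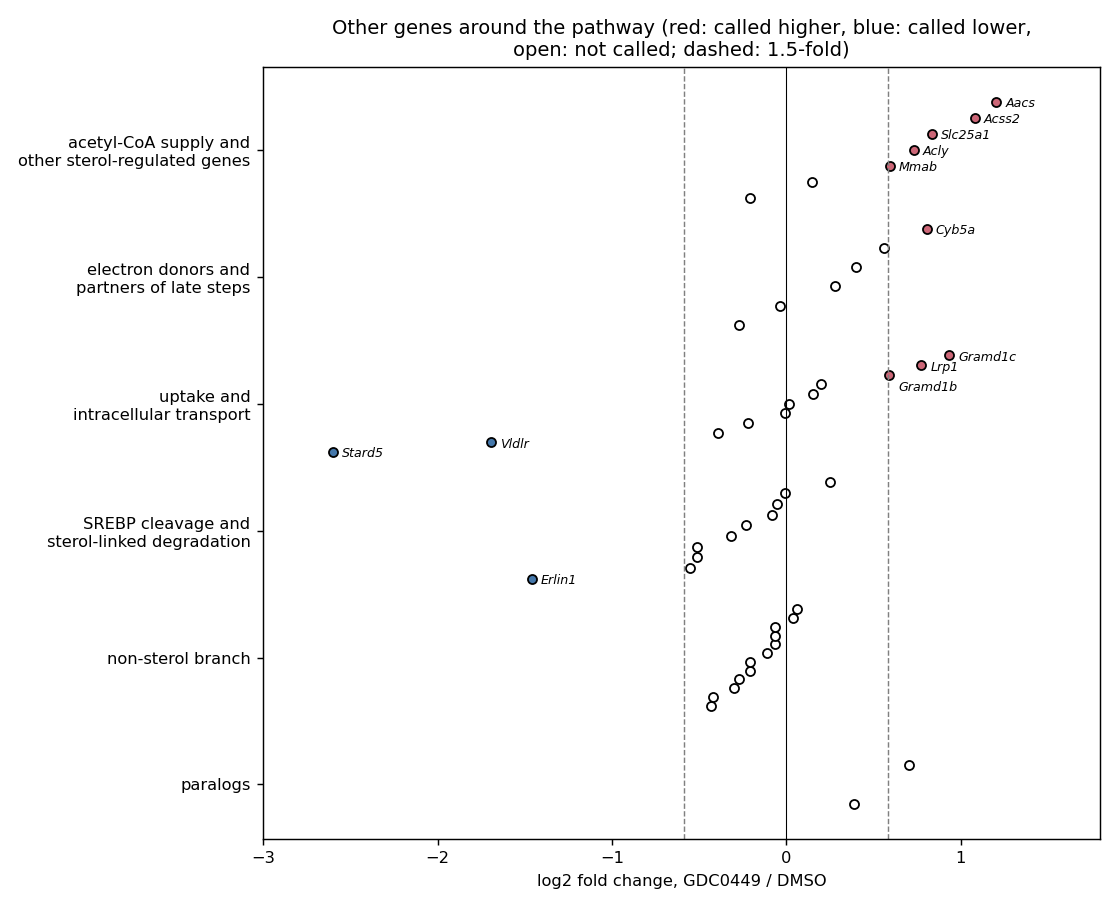
Log2 fold change of GDC0449 over DMSO for the 48 tested genes in 6 lists around the pathway (red, called higher; blue, called lower; open, not called; dashed lines, 1.5-fold). Acetyl-CoA supply lies to the right, the branch to other products lies between the dashed lines, and Stard5, Vldlr and Erlin1 lie far to the left.

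Gli1, the target gene by which inhibition of Hedgehog signalling is usually read, fell 7.61-fold (272 ± 12.9 to 35.8 ± 4.29 CPM, adjusted p 1.67e-36). Some markers of other cell states also differed between the groups, beside the 8.68% and 3.85% of all tested genes called higher and lower. Of the 8 granule progenitor markers, 7 were tested, 2 were higher (Atoh1 and Meis1) and 1 lower (Gli1 itself). Of the tested markers not called, Zic1 (log2 0.24) and Zic2 (0.38) lay above 0. Gli2 (log2 -0.58, adjusted p 3.98e-10) and Pax6 (-0.19, adjusted p 0.0450) lay below 0. The 8 markers summed to 1320 to 1361 CPM in DMSO and 1241 to 1315 CPM in GDC0449. That sum includes Gli1, which went from 272 to 35.8 CPM. Mature granule neuron markers had 3 of 7 tested genes higher (Cbln1, Cbln3 and Reln), and Gabra6 was at 0 in all 4 libraries. Their sum was 336 to 347 CPM in DMSO and 524 to 542 CPM in GDC0449. Reln alone went from 147 to 262 CPM and Cbln1 from 35.0 to 86.7 CPM, while Cbln3 was low, at 0.545 and 1.85 CPM. Grin2c (log2 0.45) and Neurod2 (0.23), not called, lay above 0. Rbfox3 (log2 -0.08, adjusted p 0.489) and Calb2 (-0.36, adjusted p 0.0551), not called either, lay below 0. Astrocyte markers had 3 of 7 tested genes higher (Slc1a2, Sparcl1 and Aldoc), with a sum of 216 to 231 CPM in DMSO and 337 to 343 CPM in GDC0449, and Aqp4, Aldh1l1 and Gjb6 at 0. Slc1a2 alone went from 78.1 to 177 CPM, while Gja1 had a log2 fold change of -0.22 (adjusted p 0.0319), Slc1a3 of -0.07 and S100b of -0.60, none of them called. Oligodendrocyte markers had 1 of 6 higher and a sum of 72.1 to 73.3 CPM in DMSO and 89.6 to 89.9 CPM in GDC0449, with Mag and Mobp at 0. Microglial markers had 1 of 2 tested genes lower (Tyrobp, 0.935 to 0.213 CPM). They summed to 1.43 to 1.68 CPM in DMSO and 0.712 to 0.806 CPM in GDC0449. Of 4 tested fibroblast and endothelial markers, 1 was higher (Pecam1, 0.206 to 0.664 CPM) and 1 lower (Pdgfrb, 1.32 to 0.522 CPM). The fibroblast and endothelial list summed to 2.23 to 2.75 CPM over the 4 libraries. The part of these states in the rise of the sterol genes was not tested.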

How the data were processed

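RNA was sequenced from 4 libraries, 2 per group. The submitters' processing notes name Trim Galore for trimming, HISAT2 with the build mm10, and HTSeq 0.11.1 for counting; DESeq2 1.26.0 is named for the authors' own test. The raw counts and the FPKM values were both used as deposited by the authors. Which annotation release, strand setting and FPKM tool were used is not given in the sources used here. In 546 genes the counts are 0 and the FPKM at least 1 in all 4 libraries, so the 2 kinds of value were not made from one assignment of reads. Entries that name no gene (6) were left out; reads in no gene were 12.3% to 14.4%, ambiguous reads 4.73% to 4.91%, and multiply aligned reads 10.4% to 10.7% of each library. Reads in genes numbered 20113419 and 16329721 in DMSO and 20790030 and 20711391 in GDC0449. Replicates differed by more than counting noise (chi-square per gene 3.95 in DMSO and 3.17 in GDC0449).

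The 26 genes, the lists around them and the tests were chosen with earlier results of these data known. Symbols and coordinates came from GENCODE M21 (GRCm38), which held 55480 of the 55573 identifiers. Exons of 10 members overlap another gene by 3.53% to 26.7% of their bases, and without a stated strand setting counts there are uncertain. The count test was edgeR 4.0.16 (R 4.3.3), with TMM scaling, filterByExpr, the quasi-likelihood test on all genes, Benjamini-Hochberg adjustment. CPM uses TMM-scaled library sizes. The biological coefficient of variation was 4.82% with 49.9 prior degrees of freedom, so each gene's spread came largely from genes of similar level. The steps were tested on simulated data. FPKM was tested with limma 3.58.1 on log2(FPKM + 1), where fold changes of low genes are understated. Other alternatives were upper-quartile or RLE scaling, leaving out the filter, a filter of 5 CPM in 2 libraries, DESeq2 1.42.0, limma-voom, a replicate block, and leaving out each library. Where a library is left out, the lone one in its group is assumed to vary like the other group. All 26 genes are named; from each list around them, up to 4 called genes with the smallest p were named, or 2 where none was called, plus Gli1. Mmab, Gramd1c, Lbr, Tmem97, Rdh11, Gm43738 and the cell type markers fall outside this rule and were named after their values were seen.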

Additional observations from a re-analysis of the deposited data

How the results depend on the processing

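Of the 17 genes called higher, 13 kept the call under all 12 other fits and 4 lost it in at least 1 (Mvk, Pmvk, Sc5d and Dhcr7), while 0 gained one. With a library left out, 14 to 17 members were called higher and 0 lower, and the median log2 fold change of the members ran from 0.65 to 0.81; on the FPKM values it was 0.63. A 2-fold threshold left 8 members higher. The direction of Npc1, which was never called, turned with upper-quartile scaling (0.014), the 5 CPM filter (0.0086), FPKM (0.23), without DMSO replicate 1 (0.019) and without GDC0449 replicate 2 (0.017); with a library left out it ran from -0.064 to 0.019.

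Over all genes, 1343 were higher and 596 lower. These counts were 746 and 413 with no filter, 799 and 366 with the 5 CPM filter, 503 and 337 on FPKM, 2794 and 2793 on the adjusted p alone, and 648 and 312 at 2-fold; DESeq2 gave 780 higher. Leaving out a library gave 500 to 1221 higher and 351 to 605 lower. In the lists around the pathway, 9 higher and 3 lower became 5 higher with no filter, 14 and 17 on the adjusted p alone, and 2 higher at 2-fold; with a library left out they were 6 to 9 and 3 to 4. The cause of these differences was not tested.

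Replicates share a number in the labels, and same-numbered libraries deviated together only weakly (correlation 0.0863). This correlation cannot show whether same-numbered libraries shared a culture or a batch, which the labels do not say. With a replicate block, 17 members were higher, as were 1407 of all genes, with 615 lower, and no member's call changed. With 2 libraries per group, changes near 1.5-fold are the least certain.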
